A study of Arvicanthis niloticus with 59 samples.

Results

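The motile cilium and flagellum genes of the Nile grass rat (Arvicanthis niloticus) were followed through 59 tissue libraries. Members were the genes whose symbol begins with Dnah, Dnaic, Dnali, Dnaaf, Rsph, Tekt, Ift or Spag followed by a digit, and 60 of the 18970 genes in the authors' tables met this rule. By known role they comprised 7 outer dynein arm genes, 11 inner dynein arm genes, 5 factors that assemble dynein arms, 8 radial spoke genes, 5 tektins, 4 Spag genes of the central apparatus, 3 genes of intraflagellar transport complex A, 11 of complex B and 6 other Spag genes. The dynein arm subunits, radial spoke genes, tektins and central apparatus genes are called the 35 axonemal members, and the genes of both transport complexes the 14 transport members.

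A motile cilium or sperm flagellum is built around the axoneme, a cylinder of doublet microtubules. Dynein arms on the doublets provide the force, radial spokes and the central apparatus regulate the beat, and tektins line the inside of the doublets. Intraflagellar transport carries parts along the shaft and is also used by the immotile primary cilium that most cell types carry, so its genes are not particular to motile cells. In mammals, multiciliated cells line the trachea, the oviduct and parts of the uterus and the brain ventricles, and the sperm tail is formed in the testis.

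The groups were the trachea of animal T173F (1 library), the uterus of T3F (1 library), 8 brain sites of T3F (caudal and rostral cortex, hippocampus, thalamus with hypothalamus, cerebellum, pons, medulla oblongata and proximal spinal cord) and the testis of T424 (1 library), with the remaining sites as a background. All tissue was healthy and untreated; strain and age are not stated in the labels. The 8 brain libraries are sites of a single animal and not replicates of a condition, and a site with 1 library was assumed in the tests to vary like the 4 sites that had libraries of 2 animals (duodenum, skeletal muscle, renal pelvis and ovary). Total expected counts ran from 678819 in testis to 41309569, with 8148952 in trachea and 20136916 in uterus, so a low value in testis is the least certain.

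The labels were checked against marker lists. All 10 airway secretory and basal cell markers reached 1 TPM in trachea (summed level 122000 TPM) and in no other library, all 8 neuronal markers did so in each of the 8 brain libraries, and all 15 sperm tail and 5 spermatid nucleus markers in testis. All 9 uterine markers reached 1 TPM in uterus, but also in 5 other libraries, and their sum was higher in rectum (9114 TPM) and bladder (15160 TPM) than in uterus (2961 TPM), so this list does not tell uterus apart. Several libraries stand apart. The retina, hippocampus, femur and sciatic nerve libraries of T426 held spermatid genes and are described separately. The libraries labelled liver T3F and lung T3F had leading genes of another organ, and pancreas T173F detected few genes; these 3 were also kept out of the tests. Ovary T173F had the oviduct glycoprotein Ovgp1 at 1595 TPM, against 0.27 TPM in ovary T3F, and is described in a paragraph of its own. Renal pelvis T426 had all 9 hepatocyte markers at 1 TPM, with a sum of 25920 TPM against 202.7 TPM in renal pelvis T173F. It stayed in the tests as part of a replicated site, so that pair does not hold the same tissue alone. A fit without it was run as an alternative.

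The 35 axonemal members were high in few libraries. Their mean log2(TPM + 1) was 4.71 in testis, 4.19 in ovary T173F, 2.97 in the midbrain library, which the labels file under eye, 2.88 in trachea, between 1.72 and 2.56 in the 8 brain sites (median 2.06) and 1.32 in uterus. In the other sites without ovary T173F and midbrain it ran from 0.08 to 1.75 with a median of 0.80 over 39 libraries. Uterus T3F therefore lay inside the range of the other sites, while trachea and 7 of the 8 brain sites lay above it. Within the libraries of T173F, the trachea lay below the ovary (4.19) and above each of 9 other sites (0.38 to 1.23) and the pancreas library that was left out of the tests (1.68). In whole tissue, fewer ciliated cells and less RNA per ciliated cell cannot be told apart.

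**Figure D1:**
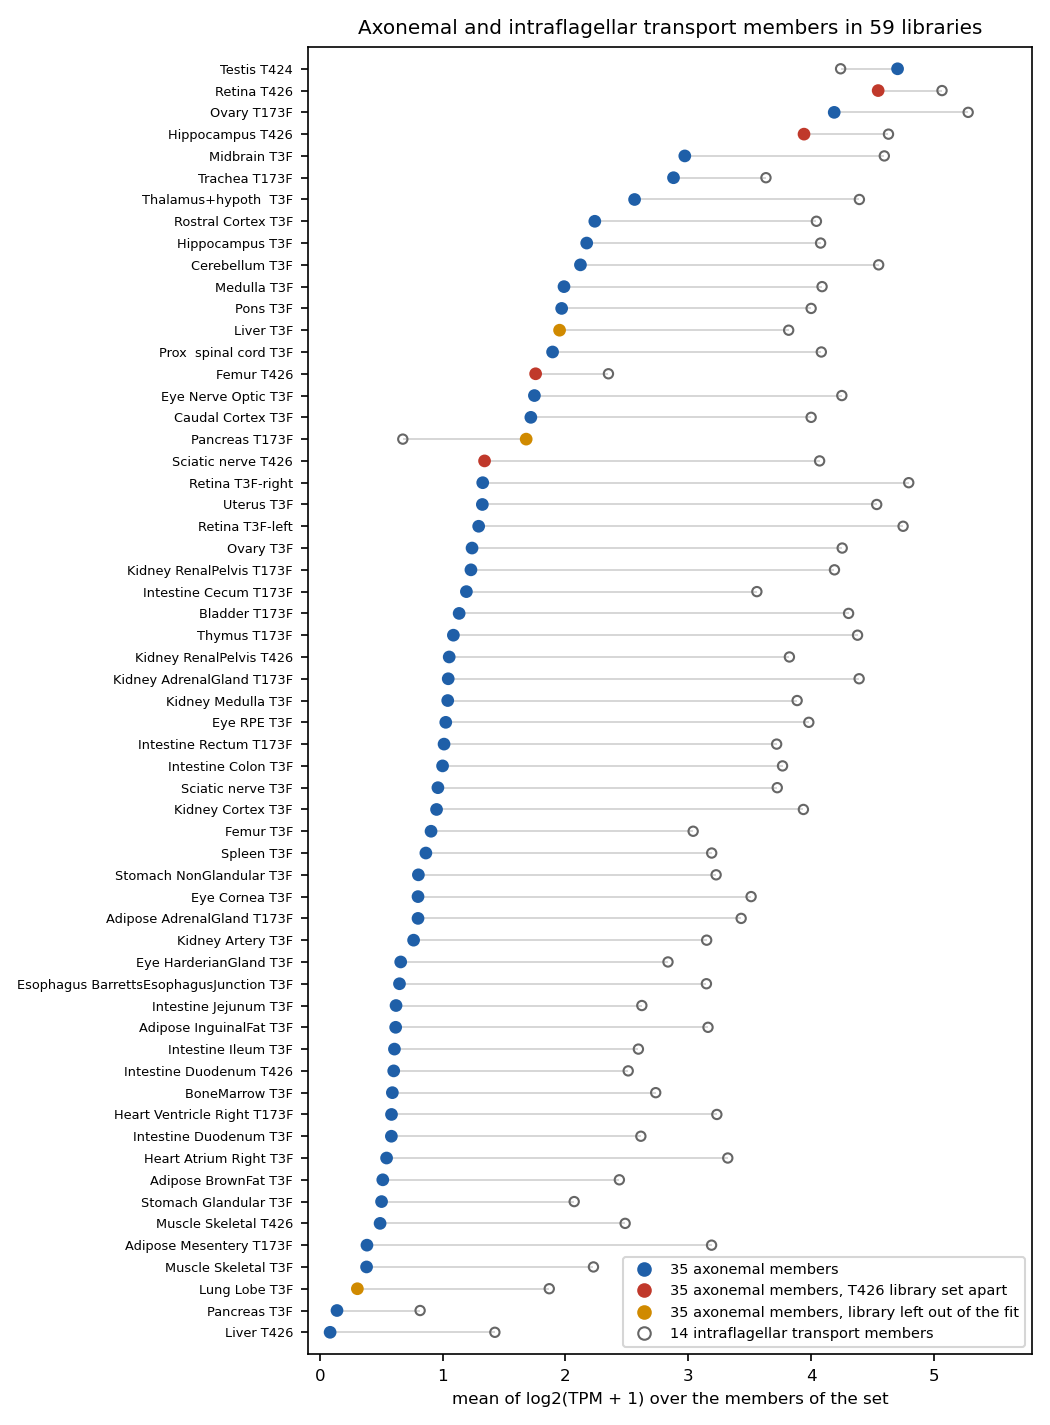
Mean log2(TPM + 1) of the 35 axonemal members (filled points) and of the 14 intraflagellar transport members (open points) in each of the 59 libraries, sorted by the axonemal mean; there is 1 value per library and no error bar. Testis (4.71), retina T426 (4.55) and ovary T173F (4.19) head the axonemal order, and the open points lie above the filled ones in all libraries but testis and pancreas T173F; red marks the T426 libraries set apart and orange those left out of the tests for other reasons.

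The transport members formed a broader pattern. Of the 14, 13 reached 1 TPM in at least 50 of the 59 libraries, against 3 of the 35 axonemal members; 23 axonemal members reached 1 TPM in under 30 libraries. The mean log2(TPM + 1) of the transport members was 4.24 in testis, 3.63 in trachea, 4.54 in uterus, 4.00 to 4.55 over the 8 brain sites and 4.75 and 4.80 in the left and right retina of T3F. On TPM, trachea was lower than uterus in 13 of 14 transport members and higher than uterus in 28 of 35 axonemal members. These are single libraries of different animals, and no share over all genes is given. In the edgeR fit described below, the median log2 fold change of trachea against uterus was 0.33 over the transport members. It was 3.74 over the axonemal members and −0.01 over all genes, so the lower transport level in trachea was not kept under that scaling.

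**Figure D2:**
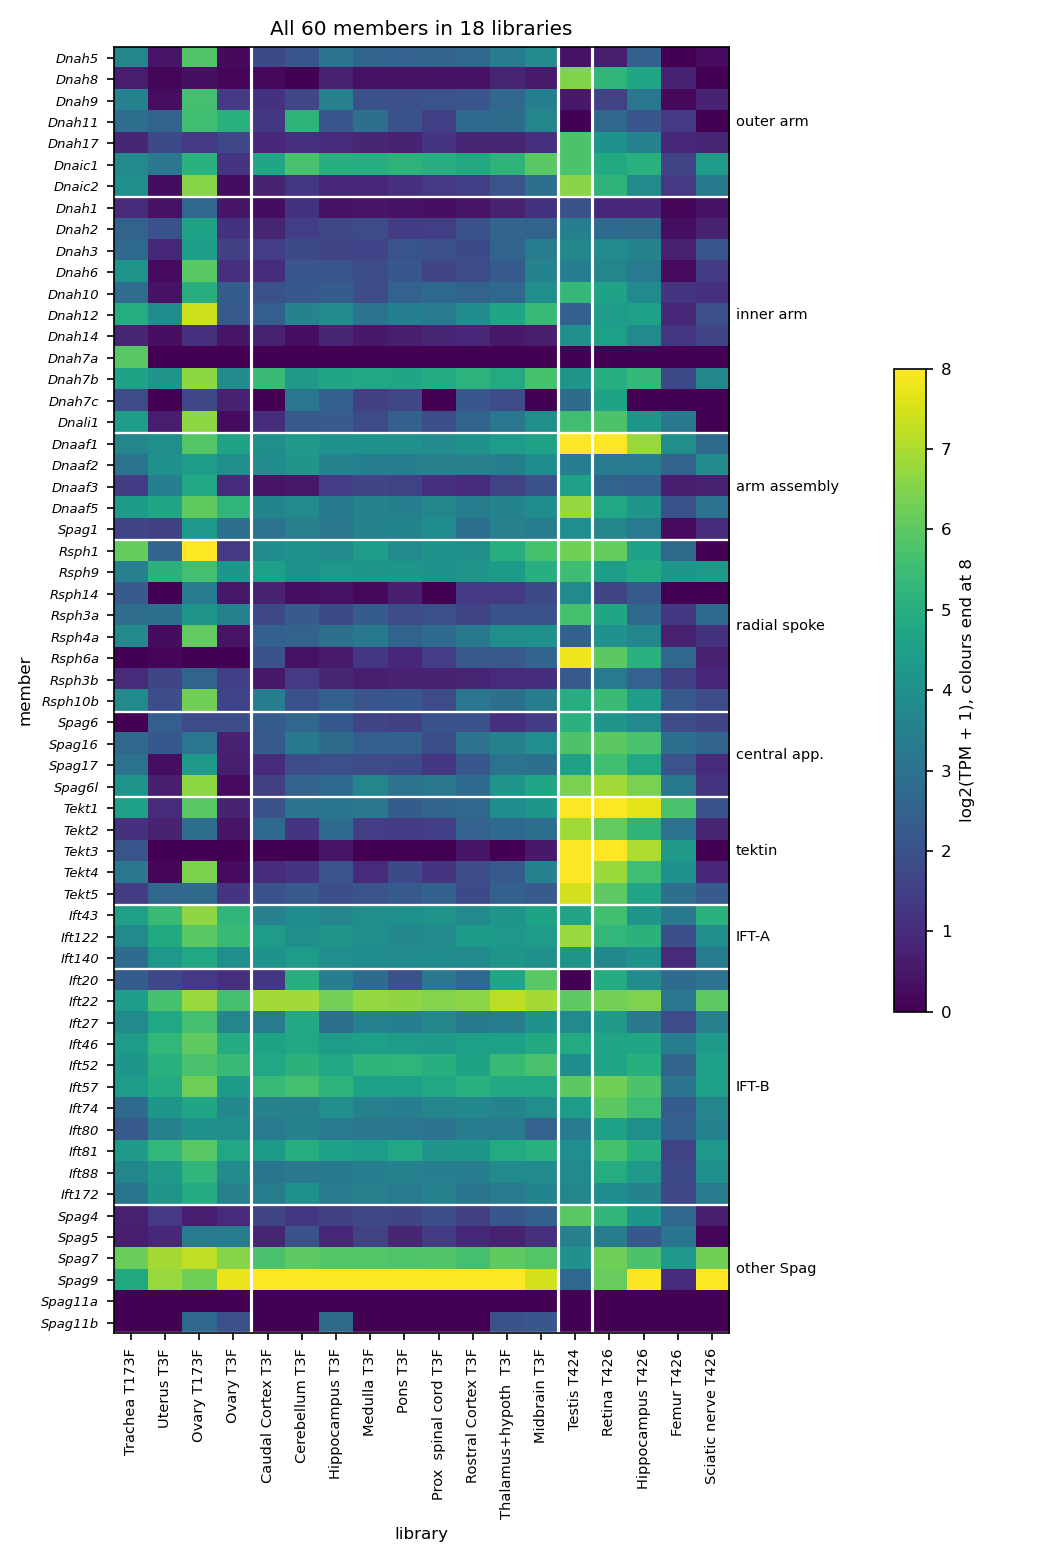
Log2(TPM + 1) of the 60 members, in rows grouped by role, in 18 libraries, in columns; white lines part the female tract and airway, the brain with midbrain, testis and the T426 libraries. The tektin rows are brightest in testis and retina T426, and the transport rows are similar in most columns apart from femur T426.

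Among the outer arm heavy chains, the motor subunits of the outer dynein arm, the somatic sites and testis held different genes. Dnah5, Dnah9 and Dnah11, the heavy chains of airway cilia, stood at 11.6, 10.7 and 6.38 TPM in trachea and at 0.32, 0.46 and 0 TPM in testis, from 1, 2 and 0 counts. Dnah8 and Dnah17, their counterparts in the sperm tail, stood at 88.3 and 51.7 TPM in testis and at 0.56 and 0.81 TPM in trachea. The order of trachea and testis was thus opposite for the first 3 genes and the last 2. As a share of the summed TPM of the 5 heavy chains, Dnah8 and Dnah17 made up 99.5% in testis, 4.58% in trachea, 2.67% to 16.6% over the 8 brain sites (median 7.35%) and 1.15% in ovary T173F. In uterus the share was 31.1%, of a low total: Dnah5, Dnah9 and Dnah11 summed to 5.599 TPM, of which Dnah11 gave 5.003 TPM.

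Counting error leaves the size of the somatic excess wide, since testis had few counts. The ratio of trachea to testis in CPM (counts scaled by the library total) was 22.7 for Dnah5 (95% exact interval 4.05 to 902) and 14.9 for Dnah9 (4.09 to 123), covering counting error only. Dnah11 was 4.55-fold higher in trachea when testis is set to 3 counts. The lower limit of its exact interval was 3.66. In edgeR, Dnah11 passed the test against testis in trachea (adjusted p = 0.0348) and in the mean of the brain sites (adjusted p = 0.0365), whereas Dnah5 and Dnah9 did not in either. Dnah17 was lower in trachea than in testis by a log2 fold change of −6.45 ± 1.14 (SE; adjusted p = 0.0146) and Dnah8 did not pass there (adjusted p = 0.0623). In the brain sites Dnah8 was also lower than in testis (mean 0.34 against 88.3 TPM, adjusted p = 0.00146); 1 of the 8 sites had no count, so the fitted fold, which averages the sites on the log scale, is not given.

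Within the brain the heavy chains of airway type varied by site. Dnah5 ran from 2.44 TPM in caudal cortex to 8.60 TPM in thalamus with hypothalamus, Dnah9 from 1.24 TPM in caudal cortex to 10.3 TPM in hippocampus, and Dnah11 from 1.45 TPM in caudal cortex to 35.9 TPM in cerebellum. Dnah8 stayed between 0 and 0.79 TPM over the same sites. The intermediate chains, which anchor the outer arm, had another order. Dnaic1 was 12.6 TPM in trachea, 8.23 in uterus, 25.8 to 50.8 over the brain sites and 52.8 in testis, and Dnaic2 14.9 in trachea, 0.20 in uterus, 0.72 to 3.11 in brain and 95.1 in testis. Brain thus overlapped neither trachea nor uterus for Dnaic1, with the brain higher, or for Dnaic2 in trachea, with the brain lower.

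**Figure D3:**
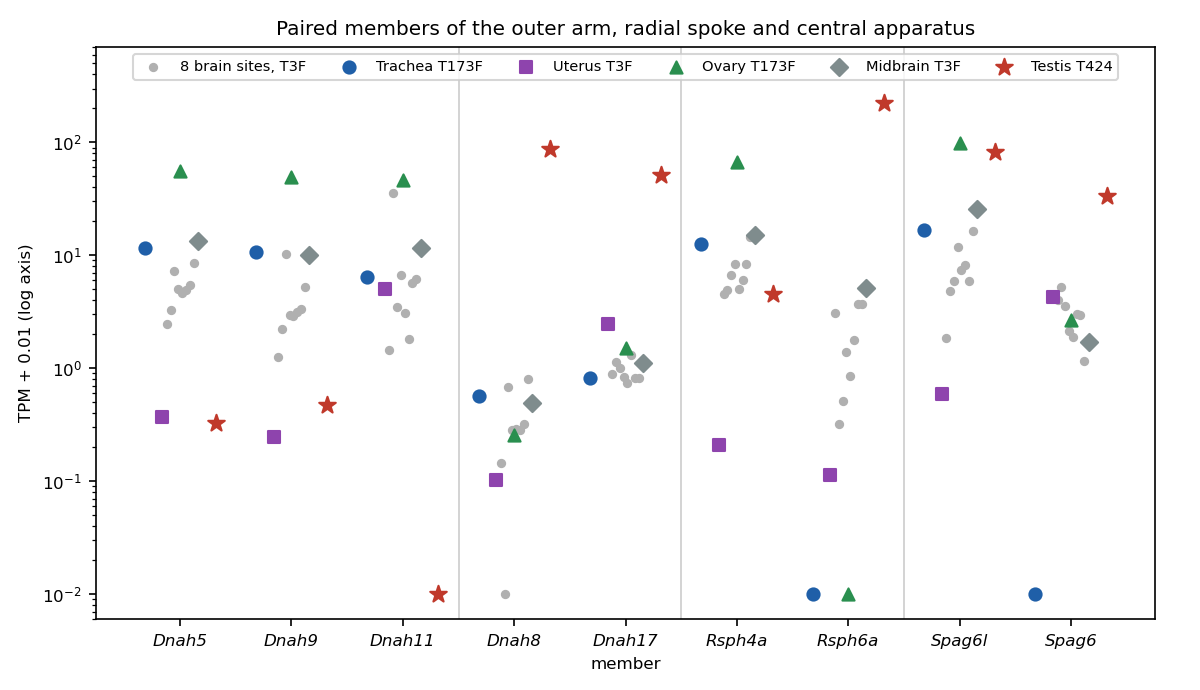
TPM + 0.01 on a log axis for 9 members, with the 8 brain sites of T3F as small grey points and 1 symbol for each other library. Dnah5, Dnah9 and Dnah11 lie low in testis where Dnah8, Dnah17 and Rsph6a lie high, and the uterus falls below trachea for Dnah5, Dnah9, Rsph4a and Spag6l.

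The inner arm members differed in their order between trachea and testis. Dnali1, an inner arm light chain, was 21.2 TPM in trachea, 45.7 in testis, 1.02 to 7.77 over the brain sites and 0.54 in uterus. Dnah6 was 16.8 TPM in trachea, 9.92 in testis, 1.06 to 3.95 in brain and 0.17 in uterus. Dnah12, another inner arm heavy chain, was also higher in trachea than in testis, at 30.1 TPM in trachea, 13.8 in uterus, 4.22 to 25.9 in brain and 4.62 in testis. Dnah10 and Dnah14 were highest in testis (39.2 and 15.1 TPM) with 6.18 and 0.77 TPM in trachea. None of the 10 inner arm members tested passed between trachea and testis, where 6.27% of all genes were lower and 13.3% higher in trachea. Values of Dnah7a, Dnah7b and Dnah7c are uncertain, because the RefSeq gene table of this species holds a single Dnah7 and reads can be split among the 3 rows; the 61.0 TPM of Dnah7a in trachea came from 5 counts.

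Radial spoke members repeated the split in a single pair. Rsph4a, a spoke head protein of cilia, was 12.5 TPM in trachea, 4.57 to 14.4 over the brain sites, 0.20 in uterus and 4.57 in testis, there from 4 counts. Rsph6a, its counterpart in sperm, was 223.5 TPM in testis, listed at 0 in trachea, 0.10 in uterus and 0.31 to 3.70 in the brain sites. At 3 counts for trachea, Rsph6a would be 740.3-fold lower there in CPM. The exact 95% interval of the ratio of trachea to testis ran from 0 to 0.001678. The edgeR test passed (adjusted p = 0.0486). It was also lower in uterus (adjusted p = 0.0446) and brain (log2 fold change −8.65 ± 1.02, adjusted p = 0.00425). Rsph4a did not pass against testis in trachea (adjusted p = 0.861; ratio 1.73, 95% exact interval 0.65 to 6.49 from counting error).

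Rsph1, the spoke head gene with the highest level in trachea, was 68.6 TPM there, 78.5 in testis, 13.3 to 31.7 in brain and 5.15 in uterus. Rsph9 was detected broadly, at 1 TPM or more in 56 of 59 libraries, with 10.2 TPM in trachea, 34.3 in uterus and 44.6 in testis. Rsph9 thus did not follow the order of Rsph1 and Rsph4a, which both fell below 6 TPM in uterus. Rsph3a and Rsph3b share 1 gene in the RefSeq table and are uncertain individually; they were 49.6 and 3.81 TPM in testis and 6.28 and 0.99 TPM in trachea.

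All 4 central apparatus Spag genes were higher in testis than in trachea. Spag6l was 82.2 TPM in testis, 16.8 in trachea, 1.84 to 16.5 in brain and 0.58 in uterus. Spag17 was 22.7, 6.98, 0.94 to 6.89 and 0.23 TPM in the same order, and Spag16 53.7, 5.54, 2.81 to 10.5 and 3.62 TPM. Spag6 was 33.4 TPM in testis, 1.14 to 5.21 in brain, 4.26 in uterus and listed at 0 in trachea, where 3 counts would make testis at least 236-fold higher (adjusted p = 0.0227). The table of RefSeq genes holds a single Spag6, so the division of reads between Spag6 and Spag6l is uncertain, and the 0 of Spag6 beside the 16.8 TPM of Spag6l in trachea is read with that limit.

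The tektins had the widest difference between testis and the somatic sites. Tekt1 reached 1193 TPM in testis, against 22.5 in trachea, 2.93 to 13.9 in the brain sites and 0.93 in uterus. Tekt4 reached 304 TPM in testis and 8.02 in trachea, 0.95 to 3.84 in brain and 0.07 in uterus. Tekt3 reached 445 TPM in testis, 3.22 in trachea and 0 to 0.39 in brain, and was listed at 0 in uterus. Tekt2 and Tekt5 reached 115 and 175 TPM in testis and at most 5.91 and 5.19 TPM in trachea, uterus and the brain sites. All 5 tektins were at least 4 times higher in testis than in any somatic library of these groups, as were 7.15% of all genes that reached 1 TPM. In brain all 5 passed in edgeR as lower than testis, where 17.0% of all genes were lower. The log2 fold change was −8.93 ± 1.31 for Tekt1 (adjusted p = 0.00474) and −8.70 ± 1.35 for Tekt4 (adjusted p = 0.0028). Tekt3 had no count in 6 of the 8 brain libraries, so its call there is uncertain. In trachea 1 of 5 passed, Tekt5, at −7.19 ± 1.93 (adjusted p = 0.0392), where 6.27% of all genes were lower.

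The assembly factors, which fold and join dynein arms in the cytoplasm, were broadly present. Of the 5, 3 reached 1 TPM in at least 50 libraries. Dnaaf1 was 534.5 TPM in testis, against 11.4 in trachea, 14.8 in uterus and 13.6 to 19.9 in brain, and Dnaaf5 105 TPM in testis against 19.7, 25.4 and 8.38 to 12.98. Both were lower than testis in trachea, uterus and brain. Dnaaf2, by contrast, was 9.75 TPM in testis, 7.18 in trachea and 16.2 in uterus and passed in none of these comparisons.

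The transport members were detected broadly, but 12 of the 14 were higher in testis than in the other sites and 9 of the 14 lower in brain than in testis. Over all genes 18.5% and 17.0% were called in these directions. Ift52 was 13.9 TPM in testis, 17.4 in trachea, 33.8 in uterus and 23.8 to 41.4 in brain, and it passed no comparison described here. Ift122, of complex A, had the largest excess in testis, at 109 TPM against 13.2 in trachea, 27.9 in uterus and 12.1 to 20.4 in brain, and was lower than testis in all 3 comparisons. Among the 4 groups Ift22 was highest in the brain sites, at 79.4 to 145 TPM, against 20.9 in trachea, 49.8 in uterus and 63.4 in testis; ovary T173F, at 108.6 TPM, lay within the brain range. Ift20 ran from 1.46 to 32.3 TPM over the brain sites and was listed at 0 in testis, a value that 3 counts in that shallow library could hide. Across the 52 libraries of the main set, Spearman's rho of single transport members with the mean of the axonemal members ran from 0.474 (Ift20) to 0.860 (Ift74), as a description over libraries that share animals and depth.

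Spag9 and Spag7 had testis as their lowest group. Spag9, a scaffold for kinases and motor proteins, was 298 to 384 TPM in the brain sites, 108 in uterus, 28.3 in trachea and 5.53 in testis, and the brain sites were higher than testis by 4.56 ± 0.88 on the log2 scale (adjusted p = 0.00604). Spag7 was 48.9 to 65.0, 119.9, 72.6 and 15.7 TPM in the same order and was called in no comparison. Spag4, of the spermatid nuclear envelope, was 59.2 TPM in testis and 0.62 TPM in trachea (log2 fold change −7.04 ± 1.84, adjusted p = 0.0362). Spag5, a mitotic spindle protein, was 10.2 TPM in testis and 0.60 in trachea and was lower in all 3 somatic groups. Spag11a and Spag11b, epididymal peptides, were listed at 0 in trachea, uterus and testis.

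Against testis, the members that passed were mostly lower. Of 57 members tested in edgeR, 10 were lower and 1 was higher in trachea, where 6.27% and 13.3% of the 18074 genes tested were lower and higher. In uterus 13 were lower and 0 higher, with 7.42% and 14.7% over all genes, and in the mean of the brain sites 37 were lower and 2 higher, with 17.0% and 22.1% over all genes. The median log2 fold change of the members was −2.10 in trachea, −4.67 in uterus and −3.60 in brain, against 0.679, 1.043 and 1.203 over all genes. By role, the brain was lower in 5 of 5 tektins, 6 of 8 radial spoke genes, 6 of 10 inner arm genes, 3 of 7 outer arm genes, 3 of 4 central apparatus genes, 9 of 14 transport genes and 3 of 5 assembly factors. The 10 axonemal members that did not pass in brain were Dnah5, Dnah6, Dnah7b, Dnah7c, Dnah9, Dnah12, Dnaic1, Rsph1, Rsph4a and Spag6l, and Dnah11 was higher.

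These counts rest on few replicates. There were 4 residual degrees of freedom and a testis library of 678819 counts. Leaving out either duodenum library gave 6 members called in trachea and 7 in uterus, and either muscle library 7 and 8. Leaving out either ovary library gave 18 in trachea and 29 (without T173F) or 30 (without T3F) in uterus. Calls over all genes moved in the same directions. In trachea they were 2404 higher and 1134 lower in the main fit, and 1916 and 793 without duodenum T3F. They were 1557 and 747 without muscle T3F and 2936 and 1626 without ovary T173F. In uterus the same fits gave 2664 and 1341, 2182 and 883, 1990 and 903, and 3239 and 2065. With all 59 libraries as labelled the counts of members were 0, 0 and 24 for trachea, uterus and brain. Over all 18323 genes tested in that setting, 0 were called in trachea and 0 in uterus, and in brain 1197 were higher and 1991 lower. Under DESeq2-type size factors the share of higher calls over all genes moved from 67.9% to 47.8% in trachea, from 66.5% to 45.8% in uterus and from 56.5% to 41.3% in brain, and the median log2 fold change of all genes fell to 0.060, 0.347 and 0.667. The call of Dnah11 as higher in trachea was lost there, and 13, 14 and 42 members were lower in trachea, uterus and brain. Over all genes 1689, 1977 and 3982 were lower in that setting.

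Testis against the mean of 36 other sites gave the most calls. There 47 of 57 members were higher and 1, Spag9, was lower, against 18.5% and 18.8% of all genes, and the share of higher calls over all genes was 49.6%, or 65.8% with DESeq2-type size factors, under which the call of Spag9 as lower was lost. Of the 34 axonemal members tested 29 were higher. The 5 that were not comprised Dnah5, Dnah9, Dnah11 and Rsph4a, described above, and Dnah7c. Tekt4, Tekt1, Tekt3, Rsph6a and Dnah8 had the largest fitted changes at 10 TPM or more, with adjusted p of 3.4e-05 to 0.00142. Of 41 other libraries, 15 (Dnah8) to 32 (Tekt3) had no count for these genes, so the fitted fold depends on the prior count and is not given.

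Trachea against the same other sites gave 24 of 57 members higher and 0 lower, where 8.95% and 0.349% of all genes were called. The members comprised 5 of 7 outer arm, 8 of 10 inner arm, 4 of 8 radial spoke, 3 of 5 tektin and 3 of 4 central apparatus genes, but 0 of 5 assembly factors and 1 of 14 transport genes, Ift81. The median log2 fold change was 4.78 over the axonemal members, 1.0 over the transport members and −0.05 over all genes. These fits average the other sites on the log scale, so for genes with no count at some sites the fold, and with it the axonemal median, depends on the prior count. Dnah9 was 10.7 TPM in trachea against a mean of 1.67 TPM over the other libraries, or 0.48 TPM without ovary T173F (adjusted p = 0.000776). Dnah5 was 11.6 against 2.56 TPM, or 1.22 without that ovary (adjusted p = 0.00324), and Dnali1 21.2 against 3.18 TPM, or 0.81 (adjusted p = 0.00477). Tekt1 was 22.5 against 4.55 TPM, or 3.18 (adjusted p = 0.00757), and Spag6l 16.8 against 3.37 TPM, or 0.96 (adjusted p = 0.0149). That 1 library thus carried much of the mean of these genes, and the medians over the 41 libraries were between 0 and 0.24 TPM. Of the 41 other libraries, 5 (Dnah9) to 21 (Tekt1) had no count for these 5 genes, so their fitted folds are not given. limma called 3 members, and over all genes 486 as higher and 168 as lower. With the animal as a block edgeR called 0 members, with 4 at an unadjusted p under 0.05. Over all 18074 genes that fit called 77 as higher and 0 as lower. The animal terms then come from the 4 replicated sites, where ovary is the pair of T173F with T3F.

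The uterus gave no call among the members against the other sites, where 2.94% of all genes were higher and 0.0553% lower in edgeR. At an unadjusted p under 0.05 there were 9 members, beside 2631 of all 18074 genes. DESeq2 called 1 member and limma 0, beside 441 and 22 of all genes as higher and 193 and 13 as lower. Without ovary T173F or without ovary T3F, 3 members were higher, beside 947 and 920 of all genes. Between trachea and uterus no member was called either, where 0.0775% of all genes were higher and 0.00553% lower. There 6 members had an unadjusted p under 0.05, beside 2353 of all genes. DESeq2 and limma each called 3 members as higher in trachea, beside 624 and 356 of all genes. Several differences were large with wide errors: the median over the axonemal members was 3.74 on the log2 scale in favour of trachea, and Dnah5 was 11.6 TPM against 0.36 TPM. The ciliated cell markers summed to 638 TPM in trachea, with 12 of 12 at 1 TPM, and to 54.9 TPM in uterus, with 7 of 12. Foxj1, a master regulator of motile cilia, was 30.01 and 1.30 TPM. The part of ciliated cell number in these differences was not tested.

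The 8 brain sites together were higher than the other sites in 32 of 57 members and lower in 1, against 24.0% and 10.8% of all genes. Of the axonemal members 24 of 34 were higher, and of the transport members 5 of 14. Dnah12 was at a mean of 11.75 TPM over the brain sites and 5.93 TPM over the others, or 1.88 TPM without ovary T173F (adjusted p = 0.000469), and Rsph1 at 17.3 and 10.8 TPM, or 4.68 without it (adjusted p = 0.00329); 5 and 3 of the other libraries had no count for them. On the log2 scale Dnaic1 was higher by 3.31 ± 0.39 (adjusted p = 0.000225), Dnah7b by 2.49 ± 0.28 (adjusted p = 0.000184) and Ift22 by 1.85 ± 0.23 (adjusted p = 0.000321). Dnaaf5 was lower, by −1.09 ± 0.17 (adjusted p = 0.00094). With the animal as a block 26 members were higher and 1 lower, beside 3293 and 1950 of all 18074 genes. For Tekt3 and Dnah8, which had no count in 6 and 1 of the brain libraries, this mean of sites gave no usable error. Their calls in brain against testis rest on the same mean and carry that limit.

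Among the brain sites, thalamus with hypothalamus was the highest for 16 of the 35 axonemal members and cerebellum for 6. The midbrain library exceeded all 8 of them in 21 of 35 axonemal members, with Spag6l at 25.8 TPM, Dnaic1 at 61.3 and Dnah12 at 40.9. It did so in 7 of 14 transport members. The share over all genes was not computed for these counts, so they are not read as particular to the members. Ciliated cell markers summed to 670 TPM in midbrain and to 171 to 398 TPM over the brain sites, and choroid plexus markers to 80.2 TPM in midbrain, 3168 in cerebellum and 8044 in the medulla, the brain maximum. The part of either cell type in the member levels was not tested.

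By size alone, with trachea, uterus and the highest brain site set against testis, 18 of 60 members were testis-dominant (testis at least 4 times the highest somatic value), 9 were somatic-dominant by the same measure, 32 were shared and 1 stayed below 1 TPM. Over all genes that reached 1 TPM, 7.15% were testis-dominant and 71.8% somatic-dominant. All 5 tektins, 3 of 4 central apparatus genes and 3 of 7 outer arm genes were testis-dominant. The somatic-dominant members were Dnah5, Dnah9, Dnah11, Dnah12, Dnah7a, Ift20, Spag7, Spag9 and Spag11b; 4 of them, Dnah11, Ift20, Dnah7a and Spag11b, had no count in testis, which its depth could hide.

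Cilium genes outside the name rule moved alongside. In trachea against the other sites, 8 of 12 docking and ruler genes, 8 of 12 other central pair genes and 12 of 18 proteins of the doublet lumen were higher, against 0 of 18 other transport genes and 0 of 9 genes of the BBSome, a membrane cargo adaptor of cilia, where 8.95% of all genes were. In testis against the other sites the counts were 10 of 12, 10 of 12, 15 of 18, 14 of 18 and 3 of 9, where 18.5% of all genes were higher, and 1 BBSome gene was lower. Between trachea and testis themselves no gene of the docking, central pair and doublet lumen lists passed, in either direction. There 6 of 18 other transport genes and 11 of 15 sperm tail genes were lower in trachea and 2 of 9 BBSome genes higher. Over all genes 6.27% were lower and 13.3% higher in trachea. Of 13 regulators, 6 were higher in trachea and 8 in testis against the other sites, and between trachea and testis 1 passed, Rfx3, as lower in trachea. Among those that did not pass there, Mcidas, an inducer of multiciliated cells, was 25.9 TPM in trachea and listed at 0 in testis, uterus and the brain sites, while Sox30 and Rfx2, factors of spermiogenesis, were 662 and 108 TPM in testis and 0 and 8.95 TPM in trachea.

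Of 18109 genes that reached 10 TPM in some library, the 5 whose pattern over the 52 libraries of the main set was most like the axonemal mean were Ulk4, Fam227a, Fbxo36, Oscp1 and Caps2, with Spearman's rho of 0.886 to 0.900. Fbxo36 was 14.4 TPM in trachea, 65.3 in testis and 80.6 in ovary T173F. Ulk4 was 5.16, 99.97 and 18.4 TPM in the same libraries.

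Ovary T173F was the highest somatic library for the axonemal members outside the T426 libraries set apart. Rsph1 was 254 TPM there and 1.59 TPM in ovary T3F, Dnah12 168 and 3.67 TPM, Dnali1 97.97 and 0.18 TPM, and Dnah5 56.1 and 0.16 TPM. On the TPM + 1 scale 22 of 35 axonemal members were at least 4 times higher in T173F and 0 of 14 transport members were, against 8.14% of all genes. It exceeded the trachea in 30 of 35 axonemal members, by a median ratio of 3.36 on the TPM + 1 scale (35 members). The same held for 13 of 14 transport members, and no share over all genes is given. Of the testis-dominant members, Tekt1 (59.4 against 0.73 TPM) and Tekt4 (84.7 against 0.17 TPM) were also higher in T173F, while Dnah8 was 0.25 TPM, Dnah17 1.51 TPM, and Rsph6a and Tekt3 were listed at 0. The sperm tail markers summed to 305.3 TPM in ovary T173F, with 11 of 15 at 1 TPM, and to 95.7 TPM in ovary T3F, with 7 of 15; their part in the member levels was not tested. All 4 oviduct markers reached 1 TPM in ovary T173F (sum 1859 TPM) and 1 of 4 in ovary T3F (68.2 TPM). Ciliated cell markers summed to 3984 and 21.8 TPM, with Foxj1 at 210 and 2.93 TPM and Tmem212 at 323 and 0.34 TPM, and their part in the member levels was not tested. Since ovary is a replicated site, this difference enters the spread used in every test above.

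**Figure D4:**
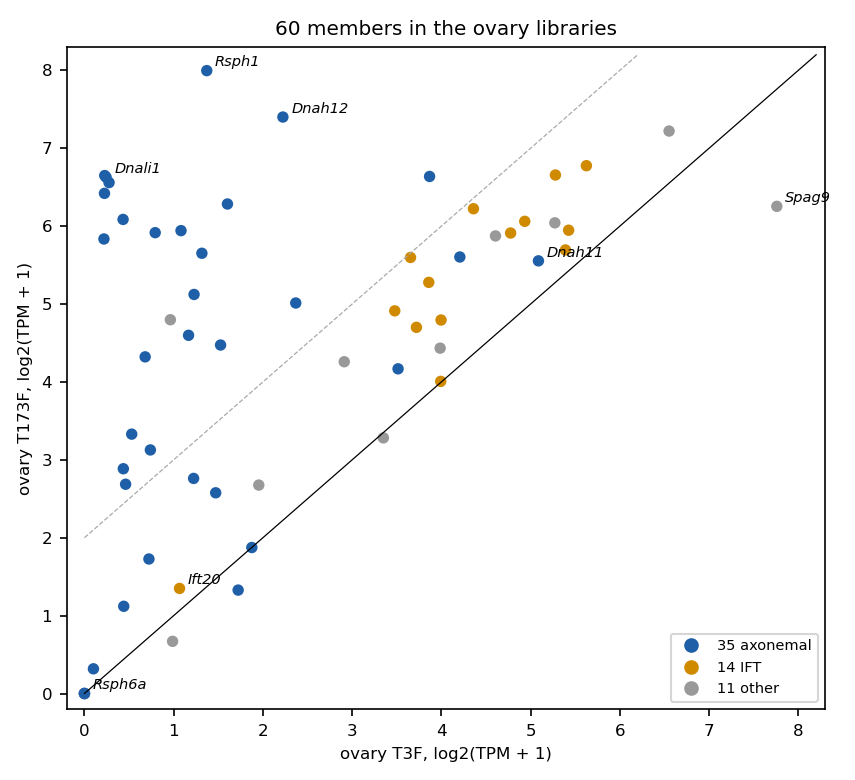
Log2(TPM + 1) of the 60 members in ovary T173F against ovary T3F, 1 library each; the solid line marks equal values and the dashed line 4 times TPM + 1. Axonemal members such as Rsph1 (254 against 1.59 TPM) lie above the dashed line, transport members between the lines, and Dnah11 (46.0 against 33.0 TPM) near equality.

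In the T426 libraries set apart, the members followed testis to differing degrees. In retina, 25 of 35 axonemal members were at least 4 times higher in T426 than in T3F on the TPM + 1 scale, and 1 of 14 transport members was, against 9.70% of all genes. In hippocampus the counts were 13 of 35 and 0 of 14 (7.53% of all genes), in femur 8 of 35 and 0 of 14 (4.83%) and in sciatic nerve 0 of 35 and 0 of 14 (2.62%). The T426 duodenum and muscle, which were not set apart, had 0 and 1 axonemal members above this fold (0.812% and 1.38% of all genes).

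Dnah8 and Dnah17, high in testis, were also the larger part of the outer arm heavy chains in retina T426. Dnah8 was 36.5 TPM and Dnah17 16.3 TPM in retina T426, against 2.32 and 2.46 TPM for Dnah8 in the left and right retina of T3F, while Dnah5 was 0.52 TPM, Dnah9 1.95 TPM and Dnah11, which had no count in testis, 5.43 TPM (9.69 and 10.9 TPM in T3F). Dnah8 and Dnah17 made up 87.0% of the summed heavy chain TPM in retina T426, 69.3% in hippocampus T426 and 48.8% in femur T426, there of a low total. In hippocampus T426 the airway-type chains were present beside them, with Dnah9 at 7.84 TPM and Dnah5 at 4.51 TPM, against 10.3 and 7.21 TPM in hippocampus T3F. Tekt1 was 642 TPM in retina, 204 in hippocampus, 51.1 in femur and 2.96 in sciatic nerve of T426, and at most 7.71 TPM at these sites in T3F. Rsph6a was 62.0, 33.8, 5.58 and 0.66 TPM in the same T426 libraries.

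Over the 18 testis-dominant members, the level in T426 had a median of 51% of the testis TPM in retina, 24.4% in hippocampus, 4.04% in femur and 1.58% in sciatic nerve, against 1.59%, 3.02%, 1.16% and 1.59% in T3F. Hippocampus T3F was among the sites used to choose these members, so its value was held low by the choice. The rank correlation of the 60 members with testis was 0.760 in retina T426 and 0.089 in retina T3F, as a description across genes, which are not independent. Sperm and spermatid markers were high in the same libraries: the 15 sperm tail genes summed to 13030 TPM in retina, 6694 in hippocampus, 1707 in femur and 269.9 in sciatic nerve of T426, with 15, 15, 14 and 12 of 15 at 1 TPM, against 55.1 to 148 TPM at these sites in T3F. The spermatid nucleus gene Tnp2 was 85960, 27940, 15830 and 1238 TPM in T426 and listed at 0 in T3F. All 10 photoreceptor markers reached 1 TPM in retina T426 (sum 15590 TPM) and all 8 neuronal markers in hippocampus T426. The part of spermatid RNA in the member levels was not tested. The ciliated cell markers summed to 2749 TPM in retina (10 of 12 at 1 TPM), 942.5 in hippocampus (10 of 12), 277 in femur (7 of 12) and 86.2 in sciatic nerve (5 of 12) of T426, and to 1663 TPM in testis (8 of 12), against 112 and 116, 230, 59.2 and 44.9 TPM at these sites in T3F. Of that list, 2 to 4 genes were at 0 in each T426 library, Sntn among them. The part of ciliated cells was not tested.

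**Figure D5:**
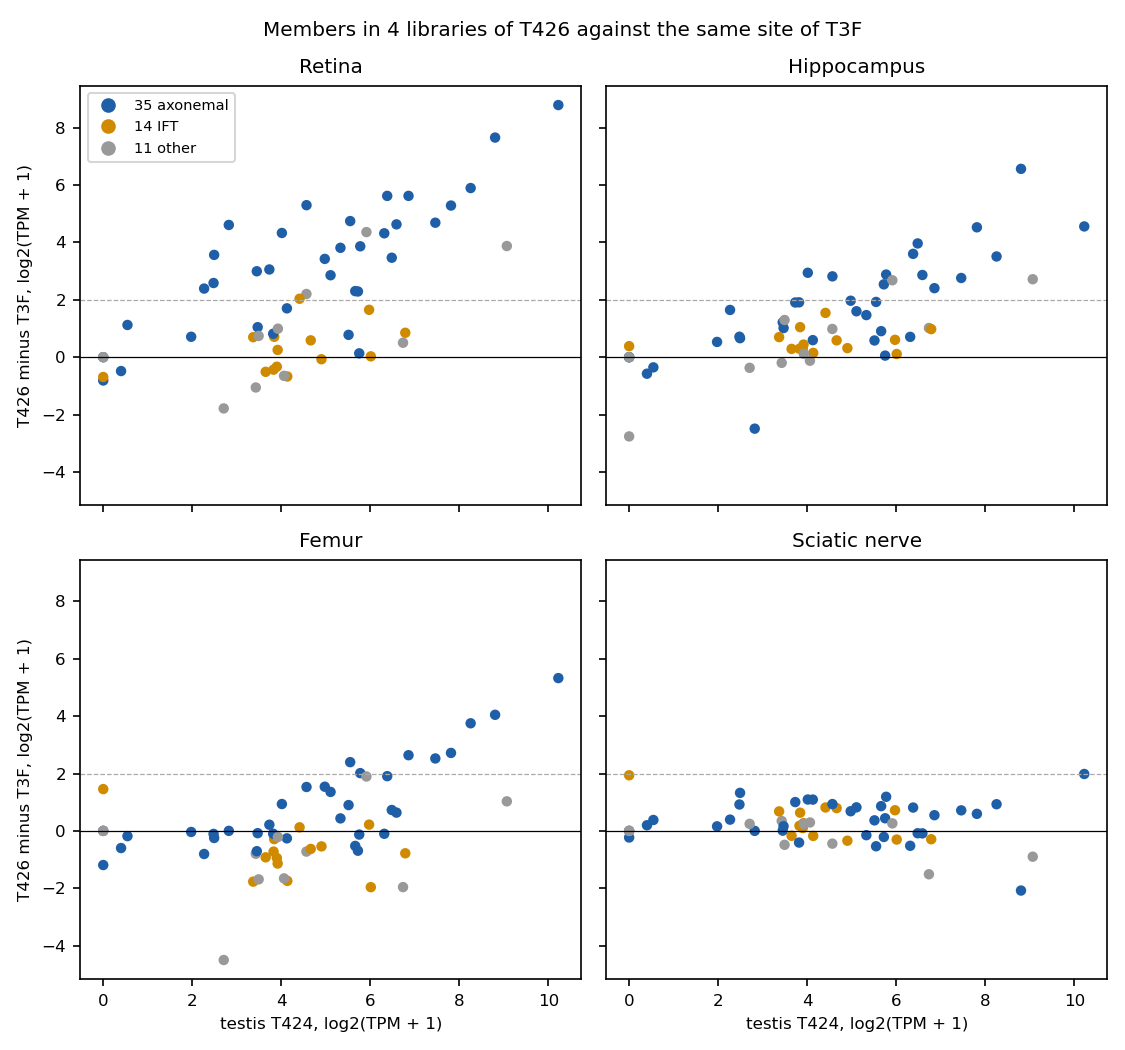
Difference between T426 and T3F in log2(TPM + 1) for the 60 members, against their log2(TPM + 1) in testis, for 4 sites with 1 library of T426 each; retina of T3F is the mean of both eyes, and the dashed line marks 4 times. In retina the axonemal members with the highest testis levels lie highest, up to Tekt1 (642 TPM in T426), and in sciatic nerve no axonemal or transport member passes the dashed line.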

How the data were processed

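Polyadenylated RNA of 59 tissue libraries from 4 animals was sequenced by the authors. The deposited expected counts and length-normalised TPM per gene came from RSEM, with Bowtie 0.12.8, per the submitters' processing notes; the genome build is not named in the labels or file headers. Every column was matched to a library by its name. Of the 60 members, 50 matched a symbol in the RefSeq gene table. Levels are the deposited TPM, with log2(TPM + 1) for means.

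For tests, expected counts were rounded and fitted in edgeR 4.0.16 (R 4.3.3, quasi-likelihood test, TMM scaling, Benjamini-Hochberg adjustment over 18074 genes; 57 members passed the filter on low counts, all but Dnah7a, Spag11a and Spag11b). The fit held 51 columns of 47 sites, both retina libraries of T3F summed. Of the 59 libraries, 7 were left out: the 4 T426 libraries set apart, the libraries labelled liver T3F and lung T3F, and pancreas T173F. The spread came from 4 sites with 2 animals each (4 residual degrees of freedom). A call needed an adjusted p under 0.05 and a log2 fold change of at least 1 in size, and the standard error is the fold change over the root of F. Since testis is the only library of T424, animal and testis cannot be told apart. Intervals are exact at 95%; these and floors of 3 counts cover counting error only. The statistics were tested on simulated data. DESeq2 1.42.0, limma 3.58.1, other scaling, filters and left-out libraries were alternatives.

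Full statistics are given for up to 5 called members per direction at 10 TPM or more, ordered by fold change without the fold where libraries at 0 set it, and adjusted p for other members where a sentence turns on them. Foxj1, Mcidas, Sntn, Tmem212, Sox30, Rfx2, Tnp2 and Ovgp1 were picked from their lists after their values were seen. Members and lists were chosen with earlier results of these data known.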

Additional observations from a re-analysis of the deposited data

Results flagged for a closer look

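Among 31 members that reached 10 TPM at some brain site, 9 had a highest site with a wide gap to the next. As a share of the range over the 8 sites, the gap exceeded the 95% critical value of Dixon's gap test. The shares ran from 0.529 for Tekt1 to 0.848 for Dnah11. That value assumes replicate draws, whereas the 8 sites are different regions of T3F, so no chance rate can be given. No share over all genes is given either, so the count is a description and not a trait of the members. Dnah11, Dnah9, Rsph4a and Tekt1 reached 10 TPM only at their highest site, so the value that set the gap also admitted them. Cerebellum was highest for Dnah11 at 35.87 TPM (next site 6.674), Dnaic1 at 50.77 (35.78), Ift172 at 15.32 (10.71) and Ift27 at 27.18 (11.37). Thalamus with hypothalamus was highest for Dnah12 at 25.88 TPM (13.86), Rsph1 at 31.74 (20.12), Rsph4a at 14.39 (8.438) and Tekt1 at 13.86 (8.072). Hippocampus was highest for Dnah9, at 10.31 TPM (5.237). Each site is 1 library of T3F.

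The mean log2(TPM + 1) of the axonemal members was 4.189 in ovary T173F (1.239 in ovary T3F), 4.547 in retina T426 (1.310 in T3F), 3.943 in hippocampus T426 (2.173 in T3F) and 1.757 in femur T426 (0.905 in T3F). These levels stand outside the comparisons between the 4 groups.

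In pancreas T173F, a library of 1573234 counts, Dnah7a was listed at 1660 TPM from 24 counts, Dnah7c at 111.8 TPM from 27 counts and Spag11a at 2622 TPM from 20 counts. All 3 were listed at 0 in pancreas T3F.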

How the results depend on the processing

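Of the alternatives run for the members with full statistics, 592 kept direction and call, 55 kept the direction and lost the call, and none reversed. This tally is not a rate of stability. Its members were chosen for the largest called changes, and the setting without a minimum fold could lose no call. The fit without renal pelvis T426 also entered it more than once. DESeq2 called 20 members between trachea and testis (11 in edgeR), 36 between uterus and testis (13), 3 between trachea and uterus (0) and 1 in uterus against other sites (0). limma called 18, 20 and 3 in the first 3 of these, and 3 in trachea against other sites (24). Calls over all genes moved as well. Between trachea and testis edgeR called 2404 genes higher and 1134 lower, DESeq2 1642 and 2472, and limma 4816 and 2392. Between uterus and testis these were 2664 and 1341, 1581 and 2840, and 4656 and 2450. With all 59 libraries as labelled, 0, 0 and 24 members were called against testis in trachea, uterus and brain. Of all 18323 genes tested there, 0 were called in trachea and 0 in uterus, so the lost calls were not particular to the members. The cause was not tested. Without renal pelvis T426, the library with hepatocyte markers, 1 member was called in uterus against other sites. Over all 18070 genes, 578 were higher and 14 lower there. Leaving out 1 library of a replicated site gave 6 to 18 members called in trachea against testis and 7 to 30 in uterus against testis. It gave 0 to 3 in uterus against other sites and 19 to 28 in trachea against other sites. Over all genes, 1557 to 2936 were higher and 747 to 1626 lower in the first of these. In the second 1990 to 3240 were higher and 883 to 2065 lower. In the third 223 to 947 were higher and 0 to 36 lower, and in the last 1235 to 2170 and 28 to 193. At 8 times in place of 4, 11 members were testis-dominant; at 2 times, 15 were somatic-dominant and 17 shared.

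With the animal as a replicate block, 0 members were called in trachea against other sites, 0 in trachea against uterus, 0 in uterus against other sites and 27 in brain against other sites. Of all 18074 genes, 77 were higher and 0 lower in the first of these, and 0 were called in the second. In uterus against other sites 234 were higher and 10 lower, and in brain 3293 were higher and 1950 lower. No paired analysis was possible against testis because testis is the only library of T424. An edgeR fit with bias-adjusted deviances, chosen after seeing the data, called 14, 19 and 41 members against testis in trachea, uterus and brain. Over all genes it called 2527 higher and 1725 lower, 2796 and 2134, and 4046 and 3084. The testis depth of 678819 counts limits every low value there.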

Other observations

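Some members were high at sites outside the 4 groups. Tekt1 was 82.8 TPM in cecum T173F, from 254 counts, above trachea (22.5 TPM) and ovary T173F (59.4 TPM). Thymus T173F had Spag5, the mitotic spindle gene, at 87.7 TPM, Ift80 at 85.1 TPM and Dnah17 at 15.7 TPM. Spag4 was 21.4 TPM in the Harderian gland of T3F, a gland of the orbit. Ift20 was 61.0 TPM in midbrain and 44.3 and 51.4 TPM in the left and right retina of T3F, and Spag9 reached 394 TPM in the optic nerve. These sites have 1 library each, apart from the retina of T3F with 1 library per eye, and no test was made of single sites.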
